A study of Mus musculus with 6 samples.

Results

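Matrix metalloproteinases (MMPs), the ADAMTS proteases and the tissue inhibitors of metalloproteinases (TIMPs) were examined in 6 mouse tumours, as every gene of the deposited expression table named Mmp, Adamts or Timp followed by its family number. The name rule took 46 of 34745 genes: 23 MMPs, 19 ADAMTS proteases and 4 TIMPs. Hep1-6, a mouse hepatoma cell line kept in DMEM with serum, had been injected subcutaneously into C57BL/6J mice to form them. Mice were on a normal diet (ND, 3 tumours) or a high cholesterol diet (HCD, 3 tumours), and neither the animals' age nor the length of feeding is given in the sources used here. The host mice carried no labelled genetic change, and all tumours came from 1 cell line, so the hepatoma side of every comparison shares its origin. Whether each tumour had its own host animal is not stated, so a p-value reflects only how these samples vary, which may in part be technical.

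MMPs are secreted or membrane-bound zinc proteases that cut collagens, other matrix proteins, growth factors and receptors. Most are made as inactive proforms and are opened by other proteases, among them plasmin, furin and other MMPs. ADAMTS proteases are secreted relatives that cut proteoglycans, trim procollagen or act on other single substrates, and TIMPs bind the active site of MMPs and of some ADAM and ADAMTS proteases. In tumours these genes are known to be used by fibroblasts, macrophages, neutrophils, endothelial cells and the cancer cells themselves.

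Values are FPKM, fragment numbers divided by gene length and library size. Levels can thus be compared between genes, and between libraries only as shares of each library. Library sizes read from the steps of the lowest values were 20351624 to 26228049 fragments. Where 3 values of a diet are given, they are those of replicates 1, 2 and 3 in that order. The hepatoma genes Alb and Afp were abundant, at 1176 to 1672 and 109 to 197 FPKM, and of 8 hepatocyte markers 7 reached the level for testing. Serpina1a, which did not, lay at or near 0 in all 6 libraries. Skeletal muscle markers summed to 691 FPKM in ND 2, 826 in HCD 1 and 83.9 in HCD 2, against 5.17 to 11.9 in the other 3 libraries. Muscle RNA was thus unequal between the libraries, and its source was not tested. In these bulk samples, fewer cells of a type and less RNA per cell cannot be told apart.

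Of the 46 genes, 30 had a mean of at least 0.5 FPKM and were tested: 15 MMPs, 12 ADAMTS proteases and 3 TIMPs. The other 16 lay below that level. Among those, Mmp16 and Mmp20 were listed at 0 in every library, and Mmp7 and Mmp27 alone reached 0.5 FPKM in any library. The remaining low genes were Mmp1a, Mmp1b, Mmp17, Mmp21, Adamts3, Adamts8, Adamts16, Adamts17, Adamts18, Adamts19, Adamts20 and Timp4. Their highest single values were 0.284 FPKM for Mmp17, 0.22 for Adamts20 and 0.173 for Adamts8.

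**Figure D1:**
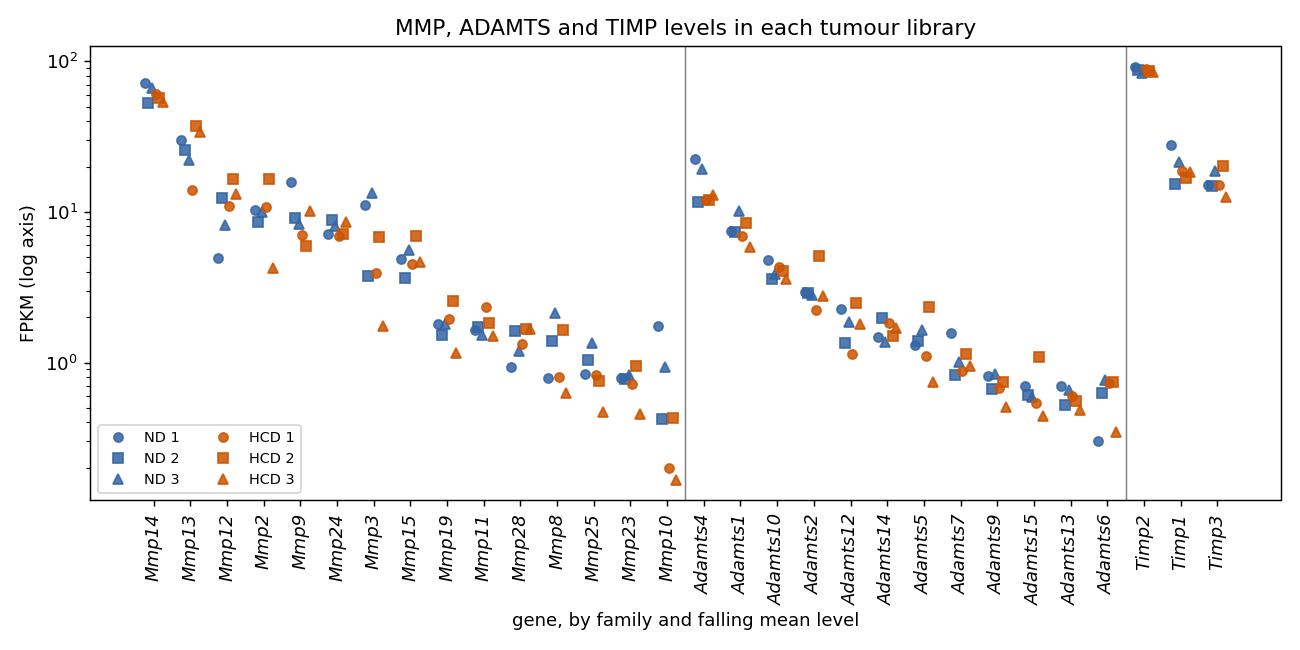
FPKM on a log axis for the 30 tested genes in each of 6 libraries (blue, ND; orange, HCD; marker shape, replicate number), ordered by family and mean. Timp2 and Mmp14 stand at the top with little spread, and the points of both diets overlap for all genes but Mmp25.

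The pool was dominated by a few genes. Summed FPKM over the 23 MMPs was 166, 134 and 153 for ND, and for HCD it was 127, 165 and 137. The TIMP sum was close to it, at 135, 117 and 124 FPKM in ND and 123, 123 and 116 FPKM in HCD. The ratio of TIMP to MMP sums was 0.834 ± 0.0374 in ND and 0.855 ± 0.112 in HCD (SD, n = 3). The ADAMTS sum was smaller, with 42.0 ± 7.22 FPKM for ND against 35.5 ± 4.46 for HCD (SD, n = 3). All 3 sums overlapped between the diets. Mmp14 alone made up 34.6% to 47.6% of the MMP sum, Adamts4 made up 29.8% to 47.9% of the ADAMTS sum, and Timp2 made up 67.7% to 74.3% of the TIMP sum.

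**Figure D2:**
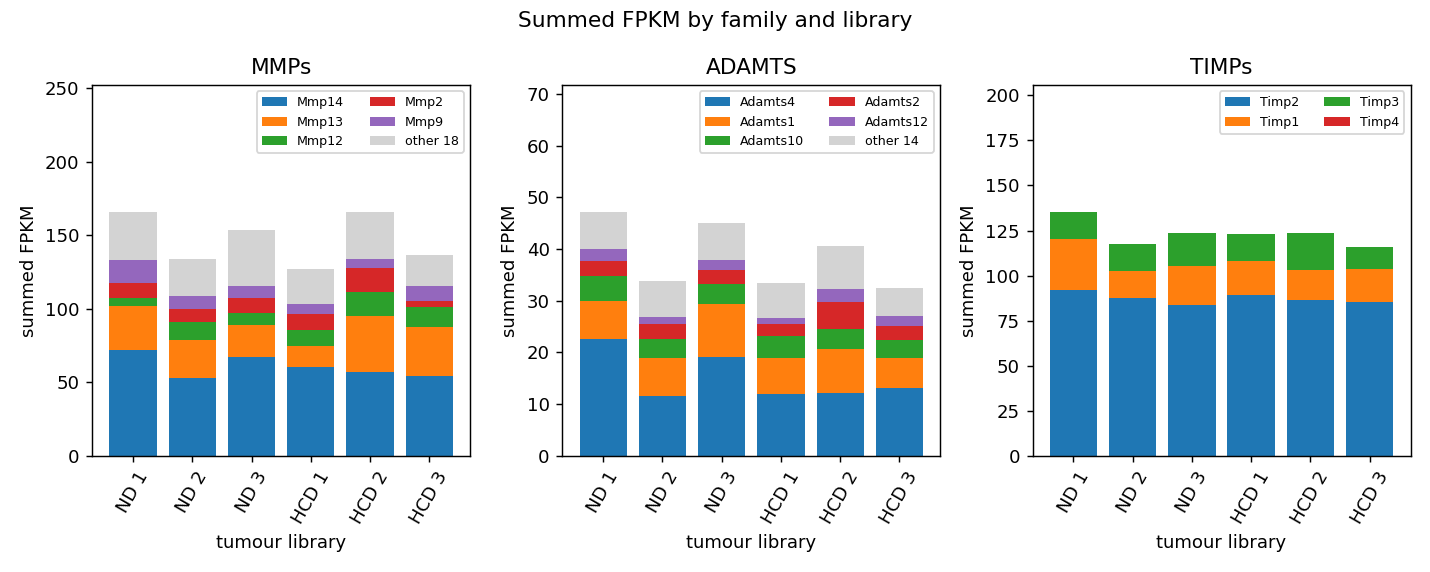
Stacked bars of summed FPKM per library for each family, with the 5 most abundant genes in colour (4 for the TIMPs) and the others in grey. Mmp14, Adamts4 and Timp2 form the largest block of their family in every library.

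None of the 30 tested genes passed the test for a difference between the diets. In limma, fitted on log2(FPKM + 1) over all 13417 tested genes, 0 members were called at an adjusted p of 0.05, beside a background of 0.0% of genes called higher and 0.0% called lower in HCD. The lowest adjusted p of a member was 0.794. Unadjusted p-values under 0.05 were found for 1 member of 30, Mmp10, and for 789 or 5.88% of all tested genes (2.56% higher and 3.32% lower in HCD). Mmp10 reached the level for testing only through its ND libraries, with a mean of 1.03 FPKM there and 0.265 in HCD, so its p-value is no support for a difference. The groups did not overlap for 1 member, Mmp25, lower in HCD, against 12.1% of all tested genes (5.98% higher and 6.13% lower in HCD). On the log2 scale the HCD mean was above the ND mean for 10 of the 30 and below it for 20, while 55.7% of all tested genes had a higher mean. Their median log2 difference was -0.06, beside 0.02 over all tested genes. The balance of directions rested on single libraries: 4 members had a higher mean without HCD 2 and 15 without HCD 3. The 95% interval stayed within 1 of no change on the log2 scale for 25 of the 30 and for 93.4% of all tested genes. The 5 with wider intervals were Mmp2, Mmp3, Mmp9, Mmp10 and Mmp12.

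**Figure D3:**
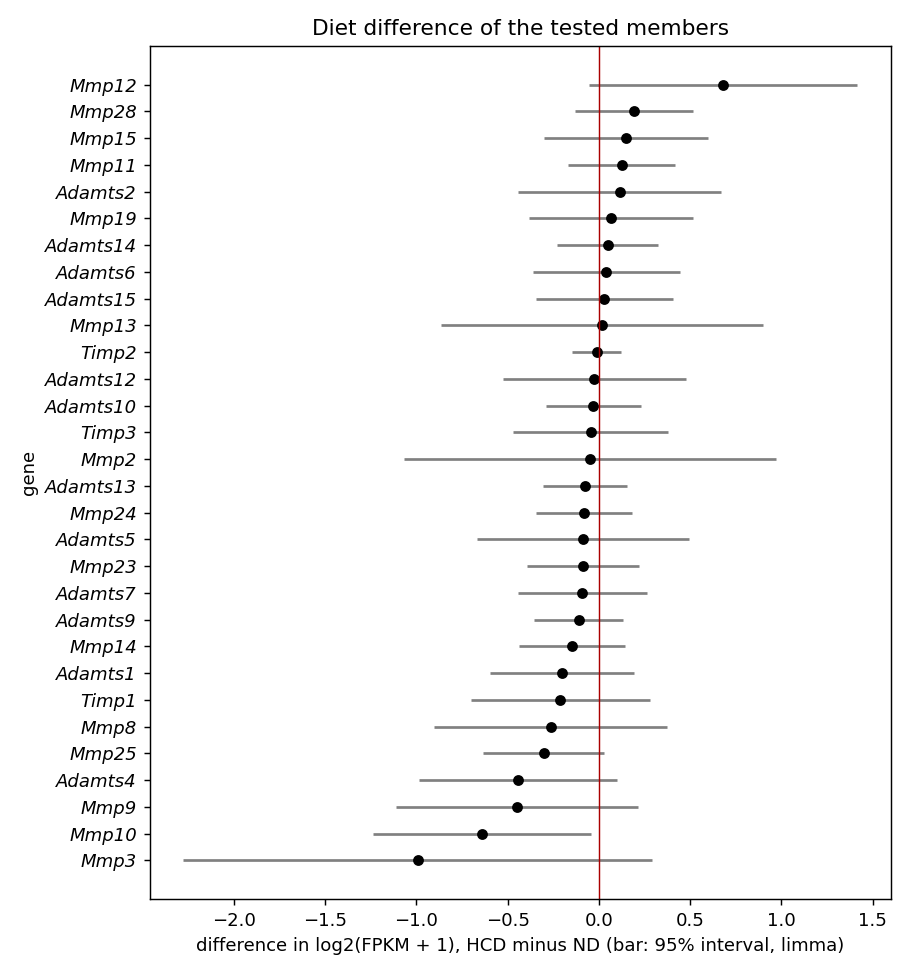
Difference in log2(FPKM + 1), HCD minus ND, for each tested gene, with its 95% interval from limma. The differences run from -0.99 (Mmp3) to 0.68 (Mmp12), and every interval but that of Mmp10 includes 0.

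Inhibitors of the family differed in how far they varied. Timp2, a secreted inhibitor that also takes part in activating pro-Mmp2 at the cell surface, was at 92.2, 87.3 and 83.8 FPKM in ND and at 89.3, 86.6 and 85.1 FPKM in HCD. Its highest library was only 1.1 times its lowest, the smallest ratio of the 30, and its log2 difference was -0.01 (95% interval -0.15 to 0.12). Timp1, an inducible inhibitor of many MMPs, was at 27.9, 15.2 and 21.5 FPKM in ND and at 18.8, 16.8 and 18.4 FPKM in HCD. ND 1 and ND 3 lay above all HCD libraries and ND 2 below them, and the log2 difference was -0.21 (95% interval -0.70 to 0.28, limma adjusted p = 0.827). That difference of Timp1 was -0.01 without ND 1 and -0.43 without ND 2. Timp3, a matrix-bound inhibitor that also blocks ADAM and ADAMTS proteases, was at 15.0, 14.9 and 18.6 FPKM in ND and at 15.0, 20.04 and 12.5 FPKM in HCD. Both its extremes were HCD libraries, and the log2 difference was -0.05. Timp4 reached no more than 0.0429 FPKM in any library. Timp1, Timp3 and Timp4 lie inside the synapsin genes Syn1, Syn3 and Syn2 on the opposite strand. The host genes were at most 0.177, 0.0436 and 0.0724 FPKM.

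Membrane-type MMPs act at the cell surface. Mmp14 (chromosome 14, 54431612 to 54445364), the main activator of pro-Mmp2 and itself a collagenase, was the most abundant of the MMPs and ADAMTS proteases, at 72.0, 52.8 and 66.8 FPKM in ND and at 60.5, 57.2 and 53.9 FPKM in HCD. ND 2 was the lowest of the 6, so the groups overlapped (log2 difference -0.15, 95% interval -0.44 to 0.15). The difference was -0.06 without ND 1 and -0.28 without ND 2. Mmp15, a second transmembrane type, was at 4.88, 3.66 and 5.54 FPKM in ND and at 4.49, 6.88 and 4.63 FPKM in HCD. Mmp24, another transmembrane type that is best known from the nervous system, was at 7.08, 8.90 and 8.10 FPKM in ND and at 6.91, 7.11 and 8.60 FPKM in HCD. Neither set was separated by diet, and their log2 differences were 0.15 and -0.08. Of the exon bases of Mmp24, 13.6% also lie in BC029722 on the opposite strand (5.6 to 8.09 FPKM), and without strand information their reads cannot be told apart.

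Mmp25 (chromosome 17, 23628311 to 23645277), a membrane-anchored MMP known from leukocytes and above all neutrophils, was the one member whose groups did not overlap. It was at 0.843, 1.04 and 1.35 FPKM in ND and at 0.830, 0.755 and 0.468 FPKM in HCD. The gap between ND 1 and HCD 1 was small beside the spread inside each diet, and the log2 difference was -0.30 (95% interval -0.63 to 0.03, limma adjusted p = 0.794). Summed neutrophil markers were 97.7, 40.5 and 103 FPKM in ND and 42.1, 40.4 and 39.5 FPKM in HCD. Of these 9 markers 6 were tested, 5 with a lower mean in HCD, and Ly6g was at 0 in HCD 2. S100a8 and S100a9 made up most of the sum. Set aside after their values were seen, they left 19.8, 15.9 and 25.5 FPKM in ND and 16.7, 13.0 and 13.3 FPKM in HCD, and Ngp was highest in HCD 1 and Ly6g in HCD 3. Their part in the Mmp25 values was not tested.

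Gelatinases cut denatured collagen and basement membrane. Mmp2, typical of fibroblasts, was at 10.4, 8.55 and 10.0 FPKM in ND and at 10.8, 16.6 and 4.22 FPKM in HCD. The 3 ND libraries lay close together between the HCD extremes, and the log2 difference was -0.05 (95% interval -1.07 to 0.97), although the HCD mean on the FPKM scale, 10.5, was above the ND mean, 9.65. Without HCD 3 the log2 difference of Mmp2 was 0.44, and without HCD 2 it was -0.44. Mmp9 (chromosome 2, 164940780 to 164955850), typical of neutrophils and macrophages, was at 15.8, 9.05 and 8.27 FPKM in ND and at 7.08, 5.91 and 10.1 FPKM in HCD. ND 1 stood above the others, and the log2 difference of -0.45 (95% interval -1.11 to 0.21, limma adjusted p = 0.794) was -0.18 without ND 1.

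A gene cluster on chromosome 9 (GRCm38, 7272514 to 7699585, 427 kb) held 10 of the MMPs, in the order Mmp13, Mmp12, Mmp1b, Mmp3, Mmp1a, Mmp10, Mmp8, Mmp27, Mmp20 and Mmp7. AP-1, the dimer of Jun and Fos proteins, is known to drive several of these genes through a site close to the start. The letters TGANTCA, which read the same on both strands apart from the middle base, were searched in the 250 bases before each start listed by RefSeq for GRCm38.p6. They were found before 8 of the 12 starts listed for the cluster, in 8 of its 10 genes, and before 0 of the 23 starts of the other members with an entry, against 6.75% of 32851 starts of all genes. In all, 32 of the 46 members had an entry, and Mmp2, Mmp9, Adamts4 and Adamts5 were among those without, so their promoters were not searched. The match of Mmp20 was TGAATCA, and in the other matches the middle base was C or G. The last 120 bases before the start are given for 5 genes with a match and 1 without, since these range from the highest to almost the lowest level in the cluster, with the matched letters in capitals.
Mmp13 (chr9:7272394-7272513, plus strand): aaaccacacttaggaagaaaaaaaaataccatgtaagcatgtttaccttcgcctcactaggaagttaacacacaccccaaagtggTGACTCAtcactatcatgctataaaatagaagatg
Mmp12 (chr9:7347254-7347373, plus strand): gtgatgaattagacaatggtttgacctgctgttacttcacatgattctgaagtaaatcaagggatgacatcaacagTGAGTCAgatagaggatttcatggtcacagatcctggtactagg
Mmp3 (chr9:7445702-7445821, plus strand): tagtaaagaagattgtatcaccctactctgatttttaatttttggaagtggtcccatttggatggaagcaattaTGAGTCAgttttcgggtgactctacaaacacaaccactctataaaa
Mmp10 (chr9:7502222-7502341, plus strand): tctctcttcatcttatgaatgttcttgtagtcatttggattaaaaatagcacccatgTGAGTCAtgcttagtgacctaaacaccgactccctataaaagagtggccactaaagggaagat
Mmp1a (chr9:7464021-7464140, plus strand): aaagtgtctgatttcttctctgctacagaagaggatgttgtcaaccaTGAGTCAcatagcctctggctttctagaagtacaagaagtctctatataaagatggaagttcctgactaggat
Mmp8 (chr9:7558309-7558428, plus strand): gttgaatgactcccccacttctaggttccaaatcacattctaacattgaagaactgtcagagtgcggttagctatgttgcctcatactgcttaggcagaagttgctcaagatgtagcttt
The match began 35 bases before the start in Mmp13, 44 in Mmp12, 46 in Mmp3, 63 in Mmp10 and 73 in Mmp1a. For Mmp12 it precedes the second of 2 listed starts, and the first had no match. A match is a description of letters and shows no binding.

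Neighbours in the cluster with the same letters before their start had very different levels. Mmp13, a collagenase, was the highest, at 30.1, 25.8 and 22.0 FPKM in ND and at 13.9, 37.5 and 33.7 FPKM in HCD. The HCD libraries held both extremes, and the log2 difference was 0.02 (95% interval -0.86 to 0.90), 0.45 without HCD 1 and -0.23 without HCD 2. Mmp1a, annotated as a polymorphic pseudogene in mouse, had 1 read in the 6 libraries together, and Mmp1b had 2. Mmp1a and Mmp1b are close copies and can share reads, so their split is uncertain, and part of Mmp1b overlaps Mmp12 on the other strand.

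**Figure D4:**
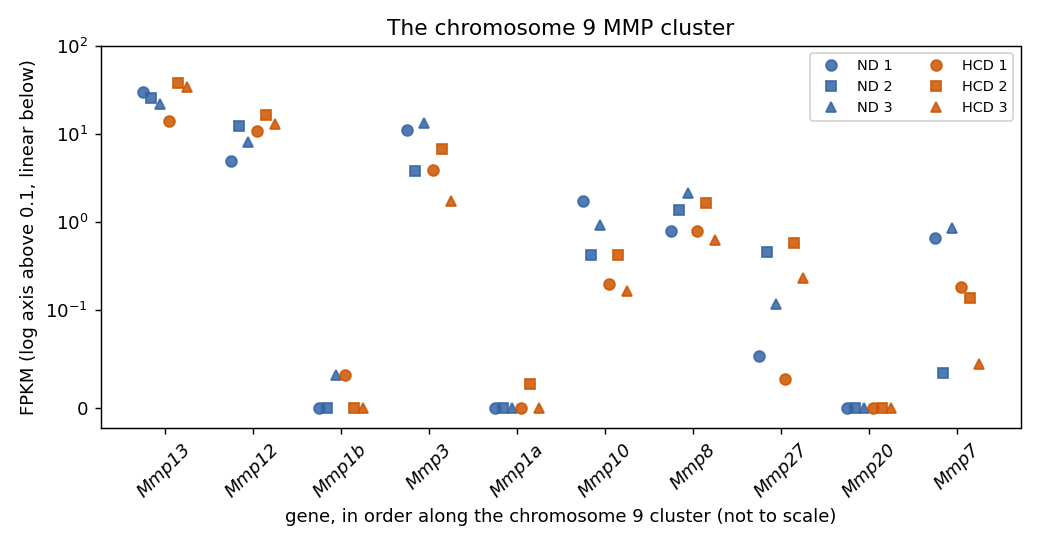
FPKM of the 10 genes of the chromosome 9 cluster in their order along the chromosome, per library (blue, ND; orange, HCD; log axis above 0.1, linear below). Mmp13, Mmp12 and Mmp3 stand far above their neighbours Mmp1b and Mmp1a, and Mmp3, Mmp10 and Mmp7 are highest in ND 1 and ND 3.

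The stromelysins and matrilysin of the cluster shared their highest pair of libraries. Mmp3, stromelysin 1, which cuts many matrix proteins and activates other MMPs, was at 11.1, 3.77 and 13.4 FPKM in ND and at 3.94, 6.81 and 1.75 FPKM in HCD. ND 1 and ND 3 were the highest and HCD 3 the lowest, while ND 2 lay among the HCD libraries. Its log2 difference was -0.99 (95% interval -2.28 to 0.29, limma adjusted p = 0.794), -1.48 without ND 2 and -0.60 without HCD 3. Mmp10, stromelysin 2, was at 1.75, 0.421 and 0.93 FPKM in ND and at 0.2, 0.427 and 0.167 FPKM in HCD. These values stood for 69, 19 and 33 reads in ND and 7, 15 and 6 in HCD. Mmp10 had the largest ratio of highest to lowest library among the tested genes, 10.5, with ND 2 just under HCD 2, and a log2 difference of -0.64 (95% interval -1.24 to -0.04, limma adjusted p = 0.794). Without ND 1 it fell below the level for testing. Mmp7, matrilysin, lay below the level for testing, at 16, 1 and 19 reads in ND and 4, 3 and 1 in HCD. In each of these 3 genes ND 1 and ND 3 were the highest pair and HCD 3 or ND 2 the lowest library.

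Mmp12, the macrophage elastase, had the largest difference toward HCD. It was at 4.94, 12.3 and 8.13 FPKM in ND and at 10.9, 16.6 and 13.2 FPKM in HCD, so that ND 2 fell inside the HCD range. Its log2 difference was 0.68 (95% interval -0.05 to 1.41, limma adjusted p = 0.794), and it was 0.38 without ND 1. Summed macrophage markers were 239, 569 and 464 FPKM in ND and 563, 941 and 388 FPKM in HCD, and all 8 markers were detected in every library. Both Mmp12 and that sum had their lowest value in ND 1 and their highest in HCD 2. T cell and endothelial marker sums had the same lowest and highest libraries. Over all tested genes, ND 1 was the lowest library for 27.3% and HCD 2 the highest for 24.0%. Mmp12 was 1.75% to 2.16% of the macrophage sum in 5 libraries and 3.39% in HCD 3. The part of macrophage content in the Mmp12 values was not tested. Mmp8, the neutrophil collagenase, was at 0.784, 1.38 and 2.13 FPKM in ND and at 0.801, 1.64 and 0.624 FPKM in HCD. Its groups overlapped over most of their range (log2 difference -0.26, limma adjusted p = 0.833). The difference of Mmp8 was -0.06 without ND 3 and -0.47 without HCD 2. ND 1 was among its low libraries and among the high ones of the neutrophil sum. Of the neutrophil markers, only Csf3r, the growth factor receptor, shared both the highest library of Mmp8, ND 3, and its lowest, HCD 3. The part of neutrophils in the Mmp8 values was not tested.

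Among the remaining MMPs, Mmp11 (stromelysin 3, known from tumour stroma), Mmp19 and Mmp28 had higher means in HCD and Mmp23 a lower one, with log2 differences of 0.12, 0.07, 0.19 and -0.09. All 4 lay at group means between 0.709 and 1.89 FPKM. The difference of Mmp11 was 0.016 without HCD 1. Of the exon bases of Mmp19, 22.3% also lie in Tmem198b on the opposite strand (1.37 to 2.09 FPKM). For Mmp11, 5.58% also lie in Chchd10 on the opposite strand (1.54 to 11.2 FPKM).

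Proteoglycan-cutting ADAMTS proteases made up most of the ADAMTS pool. Adamts4 (chromosome 1, 171250421 to 171260637), an aggrecanase that also cuts versican, was at 22.6, 11.6 and 19.2 FPKM in ND and at 12.02, 12.1 and 13.0 FPKM in HCD. ND 2 was the lowest of the 6 and the 3 HCD libraries lay within 12.02 to 13.0 FPKM, with an SD of 0.564 in HCD against 5.62 in ND. The log2 difference was -0.44 (95% interval -0.99 to 0.10, limma adjusted p = 0.794), -0.71 without ND 2 and -0.26 without ND 1. Adamts1, which cuts aggrecan and versican and is known to restrain vessel growth, was at 7.42, 7.30 and 10.1 FPKM in ND and at 6.90, 8.49 and 5.84 FPKM in HCD. These overlapped, with a log2 difference of -0.20, which was -0.06 without ND 3 and -0.32 without HCD 2. Adamts5, the second main aggrecanase, was at 1.31, 1.39 and 1.64 FPKM in ND and at 1.10, 2.34 and 0.739 FPKM in HCD, so both extremes were in HCD. Adamts9 and Adamts15 lay between 0.444 and 1.08 FPKM, with log2 differences of -0.11 and 0.03.

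The procollagen-trimming Adamts2 and Adamts14 averaged 2.88 and 1.60 FPKM over the ND libraries, and 3.37 and 1.68 over those of HCD. Adamts2, which removes the N-propeptide of fibrillar procollagens, was at 2.81 to 2.94 FPKM in ND and at 2.23, 5.12 and 2.74 FPKM in HCD, so HCD 2 alone raised its mean. The other 5 tested proteases were Adamts6, Adamts7, Adamts10, Adamts12 and Adamts13. Adamts10, which acts on fibrillin-rich matrix, was the most abundant of them with 4.08 ± 0.616 FPKM for ND against 3.96 ± 0.362 for HCD (SD, n = 3). Adamts13, the protease of von Willebrand factor, was at 0.627 ± 0.0908 and 0.544 ± 0.0573 FPKM (SD, n = 3). Log2 differences of the 5 ran from -0.09 to 0.04.

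The highest and lowest values of the members fell unevenly on the 6 libraries. HCD 2 was the highest library for 12 of the 30 tested genes and HCD 3 the lowest for 15, against 24.0% and 16.7% of all tested genes. HCD 3 was the highest for 0, against 13.3% of all tested genes. ND 1 was the highest for 9 of the 30, against 17.4%. Adamts5, Adamts15, Mmp2, Mmp19, Mmp23 and Timp3 had HCD 2 highest and HCD 3 lowest, 6 of the 30 against 5.22% of all tested genes. Fibroblast markers other than Dcn summed to 227, 132 and 176 FPKM in ND and 144, 269 and 116 FPKM in HCD, also highest in HCD 2 and lowest in HCD 3. Dcn was set aside after its values were seen, because at 682 to 914 FPKM it made up most of the full sum. Dcn itself was highest in ND 1 and lowest in HCD 2. The full sum was 1140, 940 and 951 FPKM in ND and 1050, 952 and 850 FPKM in HCD. It was thus highest in ND 1, not HCD 2, and lowest in HCD 3. Endothelial markers summed to 106 FPKM in HCD 2 and 49.4 to 62.3 elsewhere. T cell markers summed to 5.0 to 25.4 FPKM in the other 5 libraries and were highest in HCD 2, as was the macrophage sum. Hepatoma and hepatocyte markers ran the other way, lowest in HCD 2 at 1570 FPKM and highest in HCD 3 at 2210. The part of these cell types in the member values was not tested.

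A second set had ND 1 and ND 3 as the highest pair: Adamts4, Adamts9, Adamts13, Mmp3, Mmp10, Mmp14 and Timp1, 23.3% of the tested members against 10.7% of all tested genes. The neutrophil sum had the same highest pair, with and without S100a8 and S100a9, though without them ND 1 lay less far above the other libraries. Muscle markers also set ND 2 apart from ND 1 and ND 3, at 691 FPKM against 5.17 and 11.9. Adipocyte markers did so too, at 22.2 FPKM against 2.51 and 2.24. HCD 3 was low in both sums, at 6.44 and 1.44 FPKM. The part of neutrophil, muscle or adipocyte RNA in these values was not tested. These sets were read from the values and are descriptions. The median within-diet SD of log2 values was 0.25 for the members and 0.12 for all tested genes, and the median ratio of highest to lowest library was 2.01 against 1.33. Levels differ between these 2 sets of genes, so their spreads are not matched for level.

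**Figure D5:**
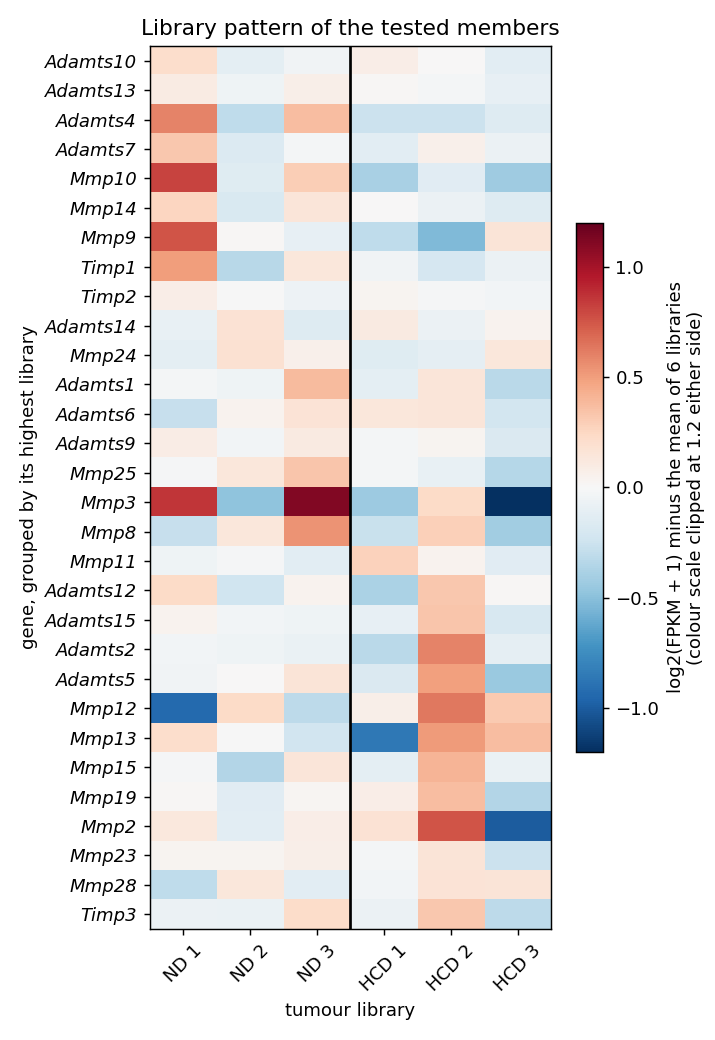
Heat map of log2(FPKM + 1) minus the gene's mean over 6 libraries for the 30 tested genes, grouped by highest library, with a line between ND (left) and HCD (right) and colours clipped at 1.2. Mmp3, Mmp10 and Adamts4 are red in ND 1 and ND 3, and Mmp2 is red in HCD 2 and blue in HCD 3.

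Other genes of the protease system showed the same lack of calls. In a list of 38 activators, inhibitors, ADAM proteases, ADAMTS-like proteins and proteoglycan substrates, 27 were tested and 0 were called. The HCD mean was higher for 8 and lower for 19, while 55.7% of all tested genes had a higher mean. The median log2 difference of the list was -0.08. At an unadjusted limma p under 0.05 there were 2 of the 27, against 5.88% of all tested genes. Plat, the tissue plasminogen activator, was at 197, 154 and 177 FPKM in ND and at 146, 131 and 142 FPKM in HCD. Cd44, a hyaluronan receptor that can anchor MMPs, was at 84.5, 77.3 and 83.0 FPKM in ND and at 60.4, 72.8 and 70.5 FPKM in HCD. These were the 2 list genes whose groups did not overlap, against 12.1% of all tested genes. Their log2 differences were -0.33 and -0.27 (limma adjusted p = 0.794 each). Furin, which activates membrane-type MMPs, and Thbs1, a matrix protein that binds MMPs, differed by -0.23 and 0.30 without a call. Bsg, which encodes the MMP inducer basigin, stayed between 145 and 160 FPKM. Plg, the plasminogen gene, was at or near 0 in all libraries, and among substrates Vcan alone was tested, with Acan, Bcan and Ncan at most 0.157 FPKM.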

How the data were processed

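RNA from 6 tumours was sequenced as paired-end TruSeq libraries, per the labels' protocols. The authors deposited 1 table of FPKM values, with a column for each of the 6 samples, as its header shows. The tools listed in the submitters' processing notes, without roles, are TopHat2 2.0.9, CASAVA 1.8, edgeR and HTSeq, with the build mm10. Annotation release and strand use are not given in the sources used here. All value columns belonged to labelled samples.

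Testing covered genes that averaged 0.5 FPKM or more, on log2(FPKM + 1) with limma 3.58.1 in R 4.3.3, with diet as the only term, a variance trend, two-sided tests and Benjamini-Hochberg adjustment over 13417 genes at 0.05. The log2(FPKM + 1) scale understates changes of low genes. Library sizes came from the steps that whole reads leave in low FPKM values, with GENCODE M21 exon lengths. With these sizes, only 48.5% to 51.8% of the low values in a library lay close to a whole read number. Reads given for Mmp1a, Mmp1b, Mmp7 and Mmp10 were whole within 0.02 in all 6 libraries. The length used was the one nearest to M21 that met this, so wholeness is not an independent check. It was 1720 bases for Mmp10, against 1722 in M21, and the M21 length for the others. Positions are 1-based, from M21 on GRCm38, the assembly of mm10. Promoter sequences are from RefSeq.

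The members and lists were chosen with earlier results of these data known. Members averaging 5 FPKM or more, the 6 with the lowest p and the 6 with the largest ratio of highest to lowest library were given in every library. Alternatives were a pseudocount of 0.1, no filter, median-ratio scaling, a block on replicate number and the omission of each library in turn; upper-quartile scaling and leaving out ND 2 and HCD 1 together, the libraries richest in muscle, were added after seeing the data. No list test was run. Not every overlap of a member with a gene on the other strand is reported here.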

Additional observations from a re-analysis of the deposited data

How the results depend on the processing

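Of the 30 tested genes, 14 kept the sign of their log2 difference in each of the 12 alternatives that gave them a value, among them Mmp3, Mmp10, Mmp12, Mmp9, Mmp14, Mmp25, Adamts4 and Timp1. Mmp10 had a value in 11, since without ND 1 it fell below the level for testing. In these alternatives 0 members were called (lowest adjusted p = 0.357, Adamts4 without ND 2). Over all genes 0 were called higher in each setting, and leaving out each library gave 0 to 1 called lower, the 1 being S100a9 without ND 2. The number of members with a higher mean, 10, ranged from 4 (without HCD 2) to 15 (without HCD 3) when each library was left out. Signs turned for 16 genes, 15 of them when a single library was left out. Over these omissions the log2 difference ranged from -0.436 to 0.44 for Mmp2, -0.234 to 0.45 for Mmp13, -0.0205 to 0.255 for Mmp15, -0.103 to 0.258 for Mmp19, -0.186 to 0.024 for Mmp23, -0.0438 to 0.024 for Timp2 and -0.218 to 0.102 for Timp3. It ranged from -0.158 to 0.302 for Adamts2, -0.354 to 0.118 for Adamts5, -0.085 to 0.165 for Adamts6, -0.194 to 0.0511 for Adamts7, -0.096 to 0.0672 for Adamts10, -0.192 to 0.158 for Adamts12, -0.0182 to 0.148 for Adamts14 and -0.13 to 0.134 for Adamts15. Without ND 2 and HCD 1 together, Adamts12 was at 0.0314, Mmp19 at -0.0112 and Mmp24 at 0.0411. Under upper-quartile scaling Mmp13 was at -0.0127. The cause of these turns was not tested beyond the omissions themselves.

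Deviations from the diet means had correlations of -0.19, 0.142 and 0.0588 between same-numbered libraries. Between differently numbered libraries they ran from -0.517 to 0.532. With so few libraries per diet, these values cannot show whether the numbers pair the samples. With the replicate number as a block, 0 genes were called and 10 members had a higher mean. Genes under 0.5 FPKM rest on few reads, which limits the precision of their values.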
